A study of Mus musculus with 7 samples.

Results

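The GADD45 family consists of 3 genes in the mouse, Gadd45a, Gadd45b and Gadd45g, and all 3 were found by symbol among the 25571 gene rows of the count table. They were followed in macrophages sorted for CD11b from glioblastoma xenografts of mice given Pracinostat, an inhibitor of histone deacetylases, or its vehicle. The recipients were NSG mice, which lack T, B and NK cells, and carried orthotopic T387 GBM tumours in the brain. The Pracinostat group (4 libraries) received 30 mg/kg by oral gavage 4 times per week over 3 weeks, beginning 7 days after implantation, and the DMSO group (3 libraries) received the solvent alone. Both groups were thus exposed to the solvent, which held 10% DMSO, 40% PEG300, 5% Tween-80 and 45% PBS. The labels also state 3 mg/kg, as the final concentration of the preparation, and the 30 mg/kg of the dosing scheme was taken as the dose given. Each library is called a biological replicate, but the labels name no animals, sex or age, so the p-values measure the spread between these samples.

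GADD45 proteins are small acidic proteins, mostly nuclear, that carry no known enzymatic activity and act by binding others. They bind and activate the kinase MAP3K4, which feeds the p38 and JNK pathways, and they bind PCNA, p21 and the CDK1 and cyclin B1 complex, by which they can slow the cell cycle. The genes are induced by different signals: Gadd45a is a classical target of p53 after DNA damage, Gadd45b was first described as a gene of myeloid differentiation and is induced by NF-kappaB and TGF-beta, and Gadd45g responds to cytokines. Deacetylase inhibitors are known to induce GADD45 genes in cultured cancer cell lines, and in the human GADD45A promoter octamer and CCAAT elements are known sites of factor binding. Whether the family differed in sorted macrophages after weeks of dosing is the comparison made below.

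The promoters are shown because the 3 genes were compared for shared elements and for unequal responses. The 250 bases upstream of each RefSeq transcription start were taken from RefSeq on GRCm38.p6, where all 3 symbols were matched. The counts were made on another build, GRCm39, and hold no coordinates. The windows are chr6:67037408-67037657 on the minus strand for Gadd45a, chr10:80929841-80930090 on the plus strand for Gadd45b and chr13:51846425-51846674 on the plus strand for Gadd45g. Each is written 5′ to 3′ along the gene, ending at the last base before the start, with capitals for CCAAT, the octamer ATTTGCAT, the E-box CACGTG and the TATA box TATAAA, on either strand.
Gadd45a: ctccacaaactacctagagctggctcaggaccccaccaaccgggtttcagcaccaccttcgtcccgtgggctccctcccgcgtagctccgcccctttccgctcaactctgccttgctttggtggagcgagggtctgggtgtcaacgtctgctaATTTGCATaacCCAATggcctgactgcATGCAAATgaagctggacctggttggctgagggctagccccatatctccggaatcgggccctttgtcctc
Gadd45b: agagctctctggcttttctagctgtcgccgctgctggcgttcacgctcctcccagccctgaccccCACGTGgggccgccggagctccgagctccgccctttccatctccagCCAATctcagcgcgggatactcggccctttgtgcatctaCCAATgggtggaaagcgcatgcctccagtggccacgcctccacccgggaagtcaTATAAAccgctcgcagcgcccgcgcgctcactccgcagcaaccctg
Gadd45g: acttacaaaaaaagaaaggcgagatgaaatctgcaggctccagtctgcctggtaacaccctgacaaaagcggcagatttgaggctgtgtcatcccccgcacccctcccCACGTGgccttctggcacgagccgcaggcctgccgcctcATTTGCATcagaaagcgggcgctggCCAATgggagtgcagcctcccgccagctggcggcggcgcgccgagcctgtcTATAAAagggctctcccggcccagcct

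The CCAAT box was found in all 3 windows, with 1 copy for Gadd45a, 2 for Gadd45b and 1 for Gadd45g, against 33.8% of 32851 promoter windows of the same length. The octamer was found in the windows of Gadd45a (2 copies, in opposite orientations on either side of the CCAAT box) and Gadd45g (1 copy), and 1.6% of all windows held it. No octamer lay in the window of Gadd45b. The E-box (6.02% of all windows) and the TATA box (12.4%) were each found once in Gadd45b and once in Gadd45g, and neither was found in Gadd45a. The marked elements did not overlap each other. GC content was 59.2% for Gadd45a, 65.2% for Gadd45b and 62.0% for Gadd45g, against a median of 52.4% over all windows. These matches describe the letters of the reference and were not measured as binding sites. The motifs were chosen with these sequences in view, so the shares over all windows give no test of enrichment.

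The libraries held 10142753 to 16950597 counts. The 10 macrophage and microglia markers, Itgam among them, were detected in all 7 libraries and summed to 7425 to 10250 CPM with Pracinostat and 7347 to 8364 CPM with DMSO, where CPM is the number of counts per 1000000 counts of the library, after edgeR's TMM scaling of library sizes. Of 7 lymphocyte markers, which the host should lack, 5 had rows. These summed to at most 0.818 CPM with Pracinostat and 1.49 CPM with DMSO. The NK cell genes Ncr1 and Klrb1c had no row, so the sum does not cover NK cells. Markers of other cell types were present in unequal amounts. Pracinostat replicate 1 and DMSO replicate 2, called collagen-rich below, had high sums of 8 fibroblast markers, at 714 and 1066 CPM. These sums were 21.4 to 46.6 CPM in the other Pracinostat libraries and 19.7 and 61.9 CPM in the other DMSO libraries. Col1a1, a collagen gene, stood at 439.9 CPM in Pracinostat replicate 1 and 702 CPM in DMSO replicate 2. Of the same markers, Dcn, Lum and Fbln1 averaged under 1 CPM. Neutrophil markers, which a CD11b gate can admit, summed to 6.22 CPM in Pracinostat replicate 3, against 141.2 to 204.7 CPM in the other Pracinostat libraries and 92.2 to 238.6 CPM with DMSO. Ly6g and Mpo averaged under 1 CPM. Endothelial and mural markers summed to 100.9 CPM in Pracinostat replicate 4, against 292.8 to 451.7 CPM in the other Pracinostat libraries and 326.4 to 413 CPM with DMSO. In bulk samples, fewer cells of a type and less RNA per cell cannot be told apart.

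Gadd45b was the dominant member of the family in every library. It lay above 93% of the 15822 genes tested in mean level, while Gadd45a lay above 60% and Gadd45g above 58%. Scaled by the length of the principal GENCODE M21 transcript (1223 bases for Gadd45a, 1284 for Gadd45b, 1071 for Gadd45g, 4 exons each), Gadd45b averaged 168 ± 42.6 CPM per kb (SD, n = 4) with Pracinostat and 113 ± 17.2 CPM per kb (SD, n = 3) with DMSO. Gadd45g averaged 21.7 ± 9.38 CPM per kb (SD, n = 4) with Pracinostat and 17.2 ± 4.62 CPM per kb (SD, n = 3) with DMSO. Gadd45a averaged 17.2 ± 5.65 CPM per kb (SD, n = 4) with Pracinostat and 19.8 ± 2.55 CPM per kb (SD, n = 3) with DMSO. The order of Gadd45a and Gadd45g thus lay within their spread in both groups, with Gadd45g above Gadd45a in mean with Pracinostat and below it with DMSO. Per length, Gadd45b made up 75.9 to 85.5% of the family with Pracinostat and 71.6 to 78.3% with DMSO.

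Gadd45b was higher in mean with Pracinostat, but the difference did not pass the test over all genes. Its level was 236.9, 279.6, 153.7 and 191.4 CPM in Pracinostat replicates 1 to 4, against 170.3, 127.7 and 138.6 CPM in DMSO replicates 1 to 3. Pracinostat replicates 1, 2 and 4 lay above all DMSO libraries, and replicate 3 lay inside the DMSO range, below DMSO replicate 1, so that the groups overlapped. The means were 215.4 ± 54.7 CPM (SD, n = 4) with Pracinostat and 145.5 ± 22.1 CPM (SD, n = 3) with DMSO, a 1.48-fold difference. The fitted log2 fold change, Pracinostat minus DMSO, was 0.57 ± 0.20 (standard error), with a 95% interval of 0.13 to 1.00. By edgeR's quasi-likelihood test the unadjusted p was 0.0142 and the Benjamini-Hochberg adjusted p over 15822 genes was 0.9998. With this test 0 genes (0%) had an adjusted p under 0.05 and 661 (4.18%) an unadjusted p under 0.05, of which 444 (2.81% of those tested) were higher and 217 (1.37%) lower with Pracinostat, and 1.18% of genes had a smaller p than Gadd45b. DESeq2 called 27 genes over the whole table and gave Gadd45b an adjusted p of 0.503.

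Gadd45b depended on single libraries in size more than in direction. Its counts of 1596 to 4592 per library leave little counting error: 153.7 CPM in Pracinostat replicate 3 had a 95% Clopper-Pearson interval of 147.6 to 160.1 CPM, and 279.6 CPM in replicate 2 one of 271.5 to 287.8 CPM. These intervals cover counting error only. Without Pracinostat replicate 3, the library nearly free of neutrophil markers, the log2 fold change was 0.70 ± 0.18 (edgeR unadjusted p = 0.00177, adjusted p = 0.684). Without Pracinostat replicate 2, the highest, it was 0.41 ± 0.20 (unadjusted p = 0.063). Without both collagen-rich libraries it was 0.44 ± 0.25 (unadjusted p = 0.111). The summed neutrophil markers stood at 190.8, 204.7, 6.22 and 141.2 CPM in Pracinostat replicates 1 to 4, against 238.6, 92.2 and 124.5 CPM in DMSO replicates 1 to 3, which is the order of Gadd45b among the libraries of each group. How many of all genes share that order was not counted. The part of neutrophils and fibroblasts in the Gadd45b level was not tested.

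**Figure D1:**
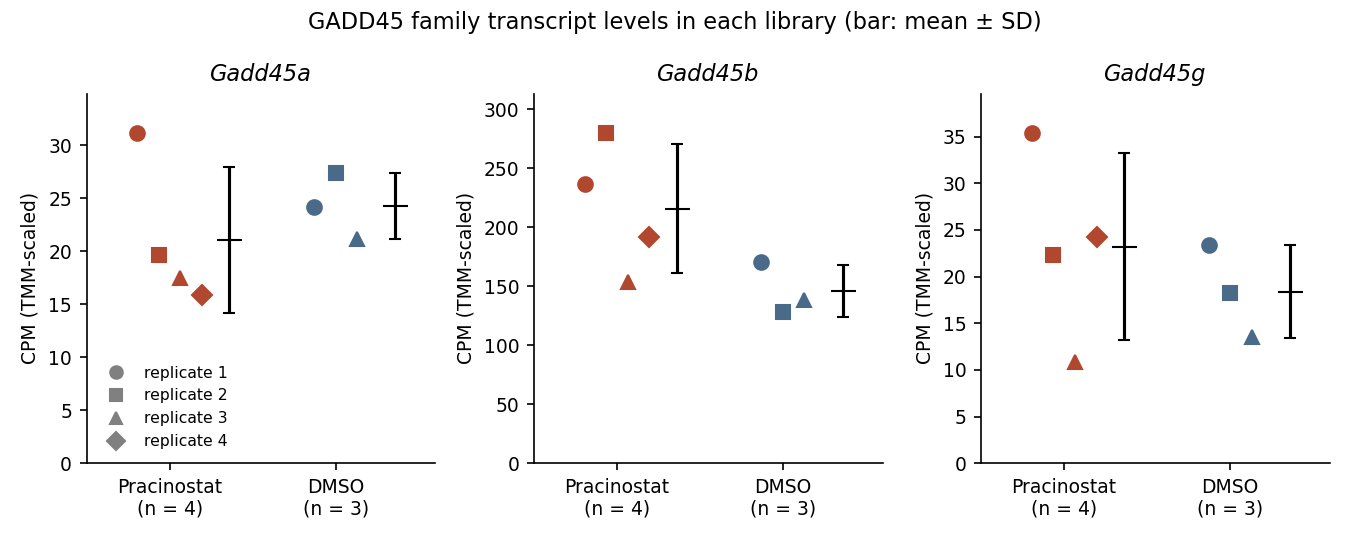
Level of each GADD45 member in each library, in CPM with TMM scaling on axes that start at 0, with symbols for replicate numbers and bars for the mean and SD of each group. Gadd45b spans 153.7 to 279.6 CPM in the 4 Pracinostat libraries and 127.7 to 170.3 CPM in the 3 DMSO libraries, and the groups overlap for all 3 genes.

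Gadd45a, the p53-responsive member, was lower in mean with Pracinostat, and the groups overlapped. Its level was 31.2, 19.7, 17.5 and 15.9 CPM in Pracinostat replicates 1 to 4, against 24.2, 27.4 and 21.1 CPM in DMSO replicates 1 to 3. Pracinostat replicates 2, 3 and 4 lay below every DMSO library and replicate 1 lay above every DMSO library, so the direction differed within the Pracinostat group. The means were 21.0 ± 6.91 CPM (SD, n = 4) with Pracinostat and 24.2 ± 3.12 CPM (SD, n = 3) with DMSO. The log2 fold change was -0.20 ± 0.30, with a 95% interval of -0.84 to 0.44 (edgeR unadjusted p = 0.508, adjusted p = 0.9998). That interval runs from 0.559 to 1.35 of the DMSO level on the linear scale. The count of 164 in Pracinostat replicate 4, the lowest, gave 15.9 CPM with a 95% Clopper-Pearson interval of 13.5 to 18.5 CPM. Pracinostat replicate 1 also had the highest fibroblast sum and the highest oligodendrocyte lineage sum among the Pracinostat libraries (1055 CPM, against 217.2 to 363.8 CPM in the others and 194.1 to 368.9 CPM with DMSO). Without it the log2 fold change of Gadd45a was -0.45 ± 0.30 (unadjusted p = 0.16). The part of those cells was not tested.

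Gadd45g, the cytokine-responsive member, varied most among the Pracinostat libraries. Its level was 35.4, 22.3, 10.8 and 24.3 CPM in Pracinostat replicates 1 to 4, against 23.4, 18.2 and 13.5 CPM in DMSO replicates 1 to 3. Pracinostat replicates 1 and 4 lay above all DMSO libraries and replicate 3 below all of them. The means were 23.2 ± 10.0 CPM (SD, n = 4) with Pracinostat and 18.4 ± 4.95 CPM (SD, n = 3) with DMSO, with coefficients of variation of 43.3% and 26.9%, against 25.4% and 15.2% for Gadd45b and 32.8% and 12.9% for Gadd45a. The log2 fold change was 0.34 ± 0.37, with a 95% interval of -0.46 to 1.13 (edgeR unadjusted p = 0.379, adjusted p = 0.9998). Counting error was small beside this spread, since 10.8 CPM in Pracinostat replicate 3 came from 164 counts and had a 95% Clopper-Pearson interval of 9.25 to 12.6 CPM. The log2 fold change was 0.06 ± 0.38 without Pracinostat replicate 1 and 0.57 ± 0.32 without Pracinostat replicate 3 (unadjusted p = 0.87 and 0.0944).

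The members were set against each other within each library, where scaling cancels and, between groups, so does length. The log2 ratio of Gadd45b over Gadd45a was 2.93, 3.83, 3.13 and 3.59 in Pracinostat replicates 1 to 4, against 2.81, 2.22 and 2.71 in DMSO replicates 1 to 3. All 4 Pracinostat libraries lay above all 3 DMSO libraries, the lowest Pracinostat value being 2.93 and the highest DMSO value 2.81. How often other pairs of genes separate in this way was not computed. The means were 3.37 ± 0.41 (SD, n = 4) and 2.58 ± 0.32 (SD, n = 3), a difference of 0.79. The two-sided exact permutation test over the 35 ways of assigning the 7 libraries to the groups gave p = 0.0571, where 0.0286 is the smallest possible, and p = 0.171 when adjusted over the 3 ratios. The counts behind this ratio were 7.6 to 14.2 of Gadd45b per count of Gadd45a with Pracinostat and 4.66 to 7.02 with DMSO.

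The other ratios overlapped between the groups. Gadd45g over Gadd45a averaged 0.07 ± 0.55 on the log2 scale (SD, n = 4) with Pracinostat and -0.42 ± 0.33 (SD, n = 3) with DMSO (exact permutation p = 0.2, adjusted p = 0.3). Gadd45g over Gadd45b averaged -3.30 ± 0.52 (SD, n = 4) with Pracinostat and -3.01 ± 0.30 (SD, n = 3) with DMSO (exact permutation p = 0.4, adjusted p = 0.4). The share of Gadd45a in the family's counts was 6.12 to 10.3% with Pracinostat and 11.1 to 15.8% with DMSO, which is the same separation seen as a share. The summed level of the 3 genes was 303, 322, 182 and 232 CPM in Pracinostat replicates 1 to 4, against 218, 173 and 173 CPM in DMSO replicates 1 to 3. On the log2 scale the sums averaged 7.98 ± 0.38 (SD, n = 4) with Pracinostat and 7.55 ± 0.19 (SD, n = 3) with DMSO, and the difference of 0.44 did not pass the exact permutation test (p = 0.114).

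**Figure D2:**
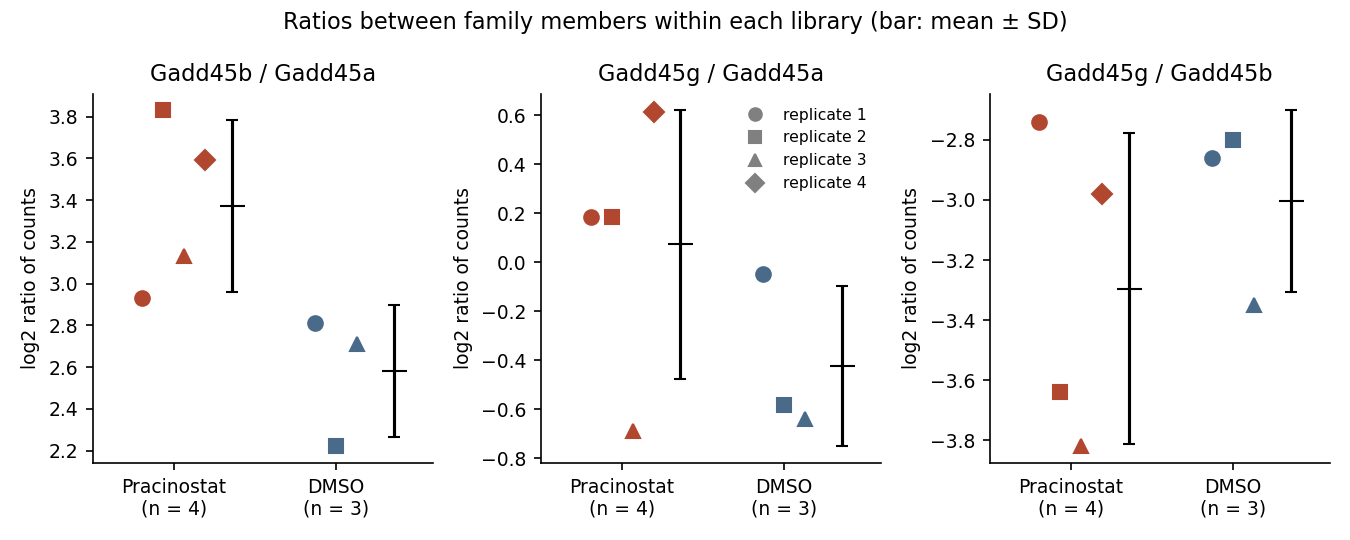
Log2 ratios of counts between pairs of GADD45 members within each library, by group, with the mean and SD as bars. For Gadd45b over Gadd45a the 4 Pracinostat libraries lie between 2.93 and 3.83 and the 3 DMSO libraries between 2.22 and 2.81, and for the other pairs the groups overlap.

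The direction of each member held under every alternative tried. Over 16 alternatives the log2 fold change ran from 0.41 to 0.70 for Gadd45b, from -0.45 to -0.11 for Gadd45a and from 0.06 to 0.57 for Gadd45g. Of the 16 fits, 13 gave Gadd45b an unadjusted p under 0.05, and 0 did so for Gadd45a or Gadd45g. The fits share libraries, so this count is not one of independent tests. For Gadd45b the edgeR unadjusted p was 0.056 without DMSO replicate 2 and 0.063 without Pracinostat replicate 2. It was 0.111 without both collagen-rich libraries. The adjusted p of Gadd45b ran from 0.34 with no low-count filter to 1.0.

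**Figure D3:**
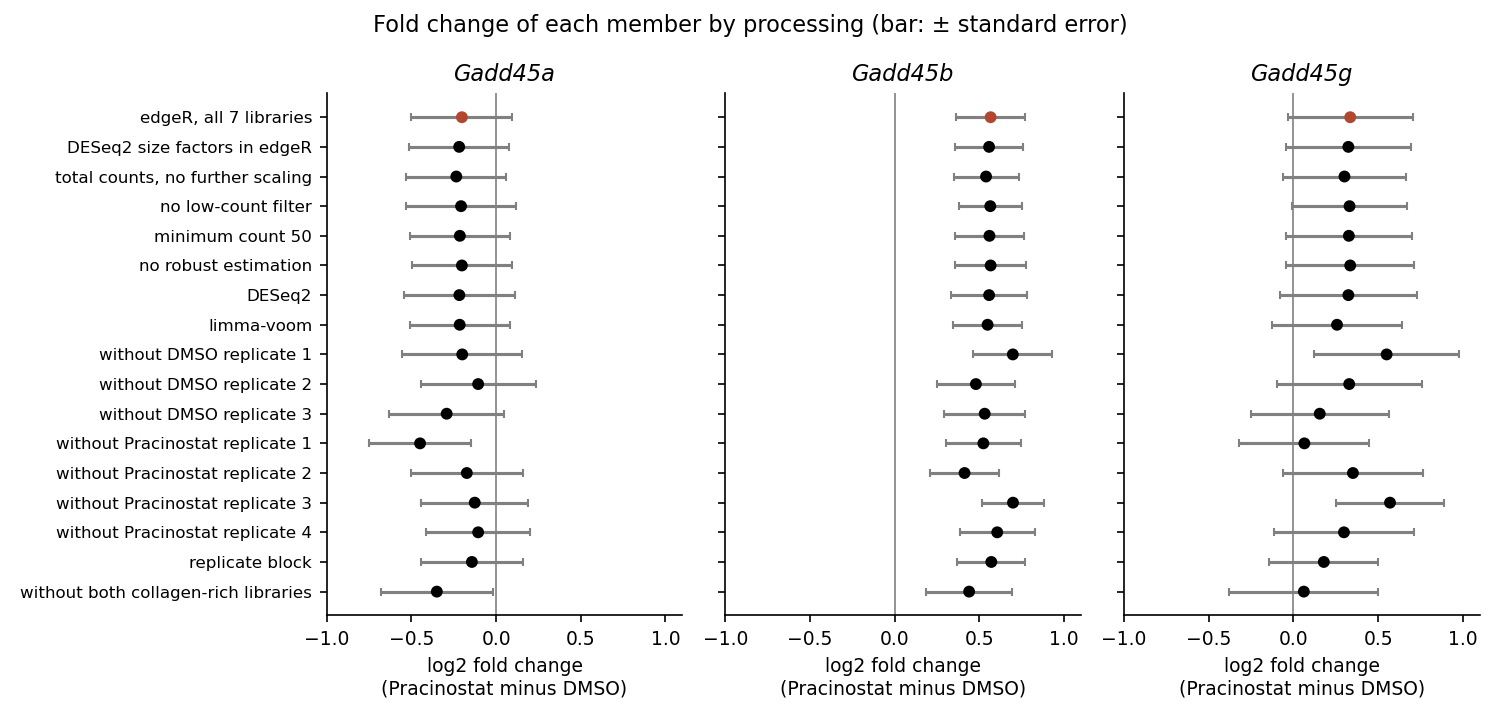
Log2 fold change of each member, Pracinostat minus DMSO, with its standard error, for the edgeR fit to all 7 libraries at the top and 16 alternatives below it. Gadd45b stays between 0.41 and 0.70, Gadd45a between -0.45 and -0.11, and Gadd45g between 0.06 and 0.57.

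None of the genes for proteins that GADD45 members bind or act through was called at an adjusted p under 0.05, nor was any other gene. Of 19 listed genes for binding partners, kinases and related factors, 19 were tested, 10 had a positive log2 fold change and 0 had an unadjusted p under 0.05, with a median of 0.04. Over all genes tested 52.3% were positive, 4.18% had an unadjusted p under 0.05 and the median was 0.02. Map3k4, the kinase that GADD45 proteins activate, averaged 71.1 ± 10.3 CPM (SD, n = 4) with Pracinostat and 69.0 ± 3.30 CPM (SD, n = 3) with DMSO, at a log2 fold change of 0.04 ± 0.18. Mapk14, which encodes p38 alpha, was at -0.28 ± 0.21 and Mapk8, which encodes JNK1, at 0.57 ± 0.30. The cell cycle partners Cdk1 (-0.04 ± 0.42), Ccnb1, or cyclin B1 (-0.05 ± 0.32), and Pcna, the sliding clamp of DNA replication (0.16 ± 0.33), lay near 0 with wide errors. Cdkn1a, which encodes p21, was at 0.16 ± 0.24. Gadd45gip1, a mitochondrial ribosome factor first described by its binding to GADD45G, was at 0.26 ± 0.47. The smallest p in the list belonged to Nr1h3, the sterol-sensing nuclear receptor LXR alpha (-1.03 ± 0.49), Mapk8 and the mitotic kinase Aurka (0.77 ± 0.45). Aurka stood at 21.8 CPM in Pracinostat replicate 3, against 8.80 to 9.62 CPM in the other Pracinostat libraries and 5.15 to 9.36 CPM with DMSO.

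GADD45 proteins are also known from DNA repair and active DNA demethylation. Of 10 genes of those processes, 6 were positive, against 52.3% of all genes, with a median of 0.05. An unadjusted p under 0.05 was found for 0 of them, against 4.18% of all genes. Apobec1, a cytidine deaminase, had its 4 Pracinostat values below the lowest DMSO value, at 298.6 ± 69.6 CPM (SD, n = 4) with Pracinostat and 390.9 ± 35.5 CPM (SD, n = 3) with DMSO, and did not pass the test (-0.39 ± 0.19, edgeR unadjusted p = 0.0541). Over all genes tested, 2.59% had non-overlapping groups in that direction. Taf12, a general transcription factor subunit (0.55 ± 0.32), and the methylcytosine dioxygenase Tet1 (1.65 ± 1.29) had the next smallest p, and Tet1 averaged 3.00 CPM with Pracinostat and 0.944 CPM with DMSO.

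Upstream regulators of GADD45 genes had log2 fold changes from -0.26 to 0.55. Of 20 genes, 16 were positive, against 52.3% of all genes, with a median of 0.12, and 1 (against 4.18% of all genes) had an unadjusted p under 0.05. Without both collagen-rich libraries 11 of the 20 were positive, against 52.2% of all genes, with a median of 0.05. That gene was Egr1, an immediate-early factor known to bind the human GADD45A and GADD45B promoters, at 3142 ± 423.4 CPM (SD, n = 4) with Pracinostat and 2210 ± 544.7 CPM (SD, n = 3) with DMSO (0.51 ± 0.18, edgeR unadjusted p = 0.0116, adjusted p = 0.9998). Egr1 and Nfkb1, the p105 and p50 subunit of NF-kappaB (0.24 ± 0.14), were the 2 genes of the list whose 4 Pracinostat values all exceeded the highest DMSO value, as did 3.51% of all genes. Sp1 was at -0.26 ± 0.16. Trp53, which encodes p53, was at 0.39 ± 0.30, Foxo3 at 0.06 ± 0.16 and Myc, a known repressor of Gadd45a, at -0.01 ± 0.52.

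Targets of p53 were near the share seen over all genes. Of 25 listed genes, 24 were tested, 13 were positive (against 52.3% of all genes) and 1 was higher at an unadjusted p under 0.05 (against 2.81%), with a median of 0.06. Plk3, a stress-induced polo-like kinase, was that gene (0.37 ± 0.16, edgeR unadjusted p = 0.0364). Plk3 and Tigar, a fructose bisphosphatase (0.98 ± 0.48), had groups that did not overlap, on the higher side, as did 3.51% of all genes. Perp, named after its values were seen, had the same on the lower side (-1.80 ± 1.00), as did 2.59% of all genes, but its highest Pracinostat value and lowest DMSO value were 3.470 and 3.478 CPM. Btg2, an antiproliferative gene, was at 0.35 ± 0.17. In the integrated stress response, which induces the other genes that carry the growth arrest and DNA damage name, 9 of 16 were on the positive side and the median was 0.05, which is also near the 52.3% of all genes. Without both collagen-rich libraries 6 of 16 were positive, against 52.2% of all genes, with a median of -0.07. Without Pracinostat replicate 4, the count was 15 of 16, against 50.5% of all genes, with a median of 0.16. With the replicate block it was 13 of 16, against 52.9% of all genes, with a median of 0.34. The positive share of this list thus depended on the libraries used. Ppp1r15a, or GADD34, was at 0.17 ± 0.24, Ddit3, or GADD153, at 0.02 ± 0.40 and Atf3 at 0.09 ± 0.16. Hspa5, the ER chaperone BiP (0.35 ± 0.15), was the 1 gene of this list under 0.05 by edgeR (unadjusted p = 0.0378), against 2.81% of all genes that were higher, followed by Nupr1 (0.52 ± 0.24) and Sesn2 (0.60 ± 0.33).

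The NF-kappaB feedback list, nearest to a known inducer of Gadd45b, held the most small p-values. Like the other lists, it was chosen with earlier results of these data known. Beside feedback inhibitors it holds other targets of the pathway, Sod2 and Icam1 among them. The median of its 18 genes was 0.51, 17 were positive, and 11 were higher at an unadjusted p under 0.05, against 2.81% of all genes. Tnip1 was negative (-0.31 ± 0.20). Adjusted over all genes, 0 passed. The 3 with the smallest p were Tnfaip3 (0.88 ± 0.21), a deubiquitinating inhibitor of the pathway, Nfkbia (0.71 ± 0.18), the inhibitor I-kappaB alpha, and Nfkbiz (0.71 ± 0.18). The groups did not overlap, on the higher side, for 6 of the 18, these 3 among them, against 3.51% of all genes. Tnfaip3 was at 1616, 1860, 974.3 and 1202 CPM in Pracinostat replicates 1 to 4, against 621.2, 853 and 826 CPM in DMSO replicates 1 to 3. Like Gadd45b, it was highest in Pracinostat replicate 2 and lowest of its group in Pracinostat replicate 3. The summed level of the list was 5868, 6655, 4392 and 4761 CPM in Pracinostat replicates 1 to 4, against 3138, 3522 and 3808 CPM in DMSO replicates 1 to 3, and the Pracinostat libraries stood in the same order as for Gadd45b, the DMSO libraries in another. The Pracinostat libraries also stood in this order for the summed neutrophil markers given above, whose part in the list's values was not tested. How many of all genes stand in this order was not counted. Without both collagen-rich libraries 6 of the 18 had an unadjusted p under 0.05 and were higher, against 2.66% of all genes. Without Pracinostat replicate 2 the count was 7, against 1.94% of all genes.

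Immediate-early genes, which cells also switch on during tissue dissociation, were positive for 22 of 26, the median being 0.21, against 52.3% positive over all genes, and 3 were higher at an unadjusted p under 0.05, against 2.81% of all genes. The count was 8 without Pracinostat replicate 3, and 1 without DMSO replicate 1, DMSO replicate 2, Pracinostat replicate 2 or both collagen-rich libraries. Over all genes the share in these fits ran from 1.94 to 3.39%. Positive genes numbered 17 of 26 without DMSO replicate 1 (53.6% of all genes) and 17 without Pracinostat replicate 2 (51.9% of all genes). They numbered 24 without Pracinostat replicate 3 (50.7% of all genes). The 3 genes under 0.05 in the fit to all 7 libraries were Egr1, Egr3 (0.68 ± 0.25) and the nuclear receptor Nr4a1 (0.74 ± 0.29). The summed level of the 26 genes was 21170, 24400, 16920 and 18550 CPM in Pracinostat replicates 1 to 4, against 15730, 16640 and 19480 CPM in DMSO replicates 1 to 3. The order of the Pracinostat libraries matched that of Gadd45b, with replicate 2 the highest, followed by replicates 1, 4 and 3. That was also the order of the summed neutrophil markers. The share of all genes with this order was not computed. With DMSO the order of the immediate-early sum differed, since Gadd45b was highest in replicate 1 and this sum was highest in replicate 3. The part of the dissociation response or of neutrophils in the Gadd45b level was not tested.

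**Figure D4:**
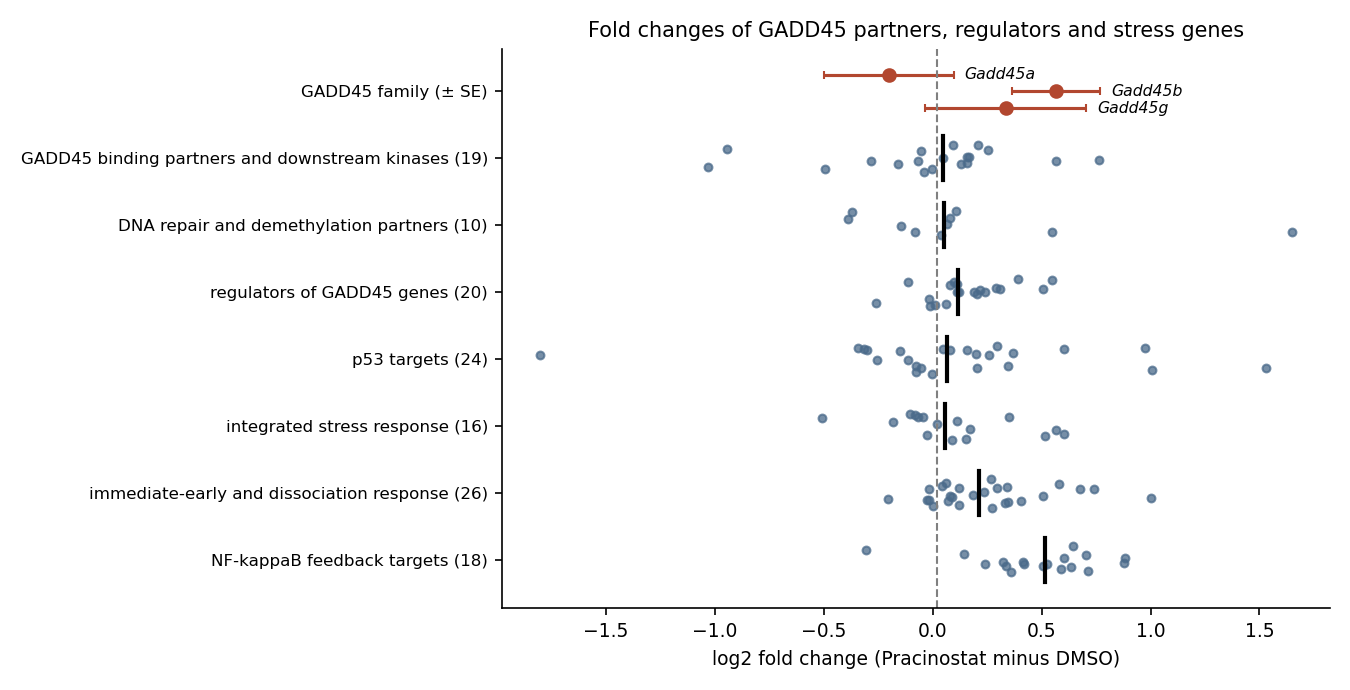
Log2 fold changes, Pracinostat minus DMSO, of the 3 GADD45 members with their standard errors and of the genes tested in 7 related lists (dots, with the list median as a black bar and the number tested in brackets). The dashed line marks the median of all genes tested, 0.02, and the NF-kappaB feedback list has its median at 0.51.

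The genes whose profiles over the 7 libraries were most like each member were found by the root mean square difference of log2 CPM, each profile centred on its own mean, among 10015 genes that have an assigned symbol and reach 2 in mean log2 CPM. For Gadd45b these were Gch1 (0.14), Itprip (0.15) and Sod2 (0.15), beside a standard deviation of Gadd45b itself of 0.41. Gadd45g was closest to Mxd1 (0.14), Nfil3 (0.19) and Slc25a20 (0.20), with a standard deviation of 0.57. Gadd45a was closest to Selenow (0.12), Wdr41 (0.12) and Sod1 (0.13), with a standard deviation of 0.35. Between the members the difference was 0.50 between Gadd45a and Gadd45b, 0.47 between Gadd45a and Gadd45g and 0.40 between Gadd45b and Gadd45g. Ranked by likeness to Gadd45g, Gadd45b was at place 389 and Gadd45a at place 1091 of the 10015 genes. By likeness to Gadd45b, Gadd45g was at place 2339 and Gadd45a at place 5205. By likeness to Gadd45a, Gadd45g was at place 5135 and Gadd45b at place 5921. Since the genes were chosen for their likeness over the same 7 libraries, these values are a description.

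**Figure D5:**
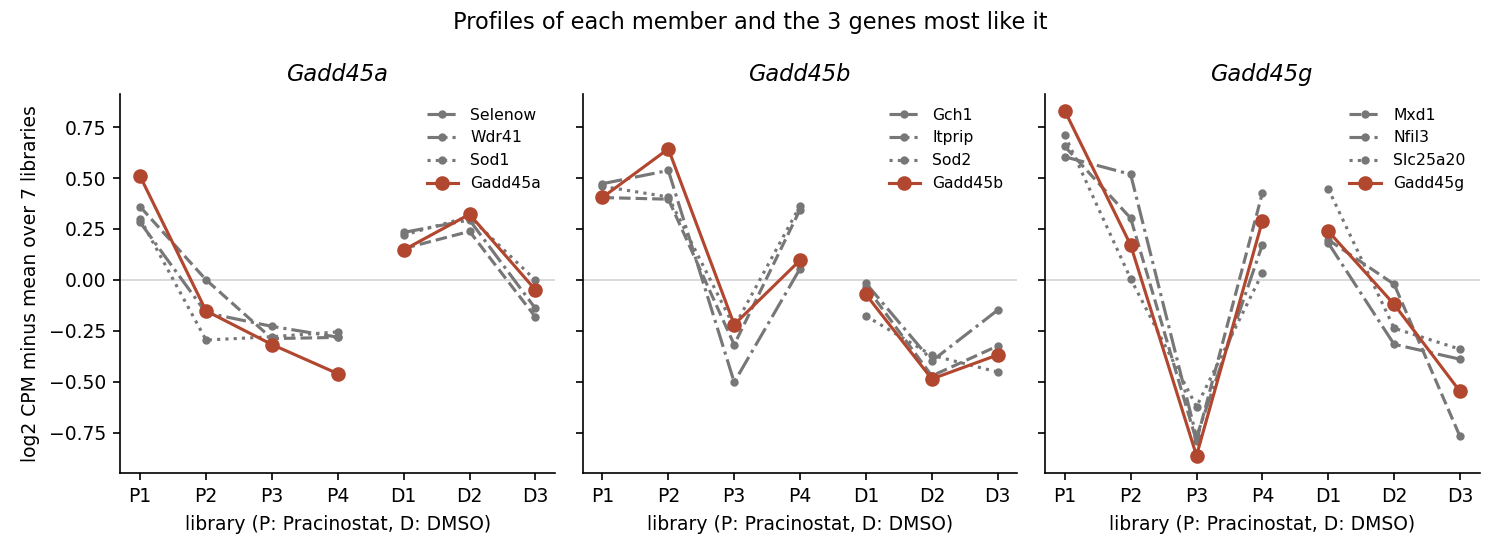
Log2 CPM minus its mean over the 7 libraries for each GADD45 member and the 3 genes most like it, with Pracinostat libraries P1 to P4 on the left and DMSO libraries D1 to D3 on the right of each panel. Gadd45g is lowest in P3 (-0.86) together with Mxd1, Nfil3 and Slc25a20, and Gadd45a is highest in P1 (0.51).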

How the data were processed

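The authors deposited 1 table of expected counts by gene symbol, held as whole numbers without normalization. The submitters' processing notes name build GRCm39 and the tools STAR, RSEM, DESeq2, Trim Galore, FastQC and MultiQC, without versions or roles. Per the labels' protocols, 1 ng of total RNA was made into stranded libraries and sequenced as paired reads of 150 bases. Which annotation and strand setting were used in counting is not given in the sources used here.

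Counts were rounded and tested with edgeR 4.0.16 (R 4.3.3): a robust quasi-likelihood fit after filterByExpr (minimum count 10) and TMM scaling, with Benjamini-Hochberg adjustment over 15822 genes at 0.05. Alternatives used DESeq2 1.42.0 and limma 3.58.1 (voom). Ratios and sums used log2 values with 0.5 counts added and two-sided exact permutation tests on the difference of means over 35 splits. The fit was tested on simulated data. The 3 members and all lists were chosen with earlier results of these data known, and the motifs with the promoter sequences in view. Named were the members, per list the 3 genes of smallest p, 13 genes listed in advance and the 3 most like each member. No duplicate libraries were found (lowest chi-square over degrees of freedom 32.3). Protein sequences were not used here.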

Additional observations from a re-analysis of the deposited data

Results flagged for a closer look

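A screen of 64 values over the 4 Pracinostat libraries found 10 in which 1 library stood far from the other 3. The gap to its nearest neighbour, divided by the whole range, was above Dixon's 95% critical value. Chance flags about 1 in 20 such groups. None of the 3 GADD45 members, their sum or their ratios was among them. The DMSO group of 3 was not screened.

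Pracinostat replicate 3 held 5 of the 10. It was the highest for Aurka (21.8 CPM, others 8.80 to 9.62, DMSO 5.15 to 9.36) and Egr3 (443.2 CPM, others 319.9 to 339.9, DMSO 131.4 to 318). It was the lowest for Nr4a1 (585.1 CPM, others 1401 to 1542, DMSO 687.2 to 829.4). It was also the lowest for 2 of the genes most like Gadd45b. These were Gch1 (17.7 CPM, others 28.1 to 29.3, DMSO 15.9 to 21.6) and Sod2 (64.6 CPM, others 97.7 to 104.3, DMSO 55.4 to 67.1).

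Pracinostat replicate 1 was the highest for Sod1 (57.7 CPM, others 38.2 to 39.3, DMSO 46.8 to 58.2), 1 of the genes most like Gadd45a, and for fibroblast markers (713.7 CPM, others 21.4 to 46.6, DMSO 19.7 to 1066). Pracinostat replicate 2 was the highest for Nfkb1 (246.3 CPM, others 209.9 to 211.9, DMSO 183.8 to 190.3) and for the summed regulators of GADD45 genes (9028 CPM, others 7682 to 7786, DMSO 5877 to 8089). Pracinostat replicate 4 was the lowest for the summed integrated stress response genes (3150 CPM, others 3859 to 3976, DMSO 2748 to 3895).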

How the results depend on the processing

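The 3 members, their sum and their ratios kept their direction and stayed short of an adjusted p of 0.05 in all alternatives run. The count of genes called over the whole table, 0 by edgeR, was 63 with no low-count filter, 4 in the fit with a replicate block and 27 by DESeq2. Over the fits that omit 1 library it ran from 0 to 3, with 3 when DMSO replicate 3 was omitted. The cause was not tested. The difference in the log2 ratio of Gadd45b over Gadd45a ran from 0.61 to 0.93 over 10 alternatives, and of these the fits that omit libraries or use the block cannot reach an exact p under 0.05. No label ties equal replicate numbers to a shared animal or day. The deviations from the group means correlated at 0.0445, -0.0352 and 0.0728 between samples of the same number. With the replicate block, which leaves out Pracinostat replicate 4, the log2 fold change was 0.57 for Gadd45b, -0.14 for Gadd45a and 0.18 for Gadd45g. Chosen after seeing the data, the counts of list genes were recomputed in the same settings, and that of NF-kappaB feedback genes ran from 6 to 12 of 18. The share of all genes higher at an unadjusted p under 0.05 ran from 1.94 to 3.6% in those settings.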
